A study of Mus musculus with 25 samples.

Results

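This account follows 31 genes used by B and T lymphocytes through RNA-seq of mouse pancreatic islets. The genes were chosen by symbol, from a list of 17 B cell genes, 8 T cell genes and 6 other lymphoid genes, out of 17885 genes listed in the 4 deposited tables together. The choice was made with earlier results of these data known. All 31 were listed in the PBS table (of 17549 genes), 28 in the db table (of 16958), 23 in the WT table (of 15216) and 14 in the HFD table (of 12822). Each islet sample was a pool of at least 3 mice, and 19 libraries in 8 groups had values. The BcBKO, HFD group had ablation of Smarcd3 in beta cells with Pdx1-cre and a high-fat diet for 3 months. Its control on the same diet was flox/flox, HFD. KO_REG3B-Fc and KO_PBS, with CTR_PBS, are known here by those names only. The remaining groups were db_REG3B with db_GFP, both labelled db, and WT with no partner group. Each compared group held 2 libraries and the WT group 5. The labels give no age, strain or sex, do not spell out CTR, KO, REG3B-Fc, db or GFP or name the gene behind KO, and do not say whether pools of a group were made independently, so a p-value here measures only the spread between these libraries. Pdx1 is active throughout the early pancreas, so a Cre driven by it need not be limited to beta cells. The 6 chow samples, 3 each of BcBKO and flox/flox, were not analysed here.

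B cells recognise antigen through a membrane immunoglobulin that signals through the CD79A and CD79B chains, tuned by coreceptors such as CD22 and by kinases and scaffolds beneath the membrane. T cells use a receptor coupled to the CD3 chains, with CD4 or CD8 as coreceptor and LCK as the first kinase. Where lymphocytes gather in lymphoid follicles, stromal cells secrete CXCL13, which attracts B cells carrying CXCR5, and lymphotoxin beta from lymphocytes maintains that stroma. Healthy islets hold few lymphocytes, and pancreatic lymph nodes lie close to the tissue from which islets are isolated.

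The results include RNA levels of antigen receptor chains and of genes for signals between lymphocytes and stroma, while signalling itself was not measured. The promoters of 3 such genes are printed here, 1 for each group of genes: Cd79a for the B cell receptor, Cd3g for the T cell receptor and Ltb for the lymphotoxin signal. Each is the 250 bases before the RefSeq start on build GRCm38.p6, 5′ to 3′ on the strand of the gene, with motif matches in capitals. The windows are chr7:24897247-24897496 on the plus strand, chr9:44980432-44980681 on the minus strand and chr17:35194257-35194506 on the plus strand, and none of the 3 overlaps the annotated span of its gene.
Cd79a: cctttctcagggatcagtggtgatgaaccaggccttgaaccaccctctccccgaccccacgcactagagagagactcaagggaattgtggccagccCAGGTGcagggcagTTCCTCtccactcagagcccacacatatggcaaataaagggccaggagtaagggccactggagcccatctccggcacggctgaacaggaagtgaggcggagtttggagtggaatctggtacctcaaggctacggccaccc
Cd3g: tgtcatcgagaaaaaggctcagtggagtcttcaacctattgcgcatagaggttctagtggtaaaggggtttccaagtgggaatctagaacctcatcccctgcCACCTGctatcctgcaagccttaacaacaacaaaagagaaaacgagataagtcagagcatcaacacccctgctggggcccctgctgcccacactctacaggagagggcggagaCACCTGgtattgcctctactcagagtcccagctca
Ltb: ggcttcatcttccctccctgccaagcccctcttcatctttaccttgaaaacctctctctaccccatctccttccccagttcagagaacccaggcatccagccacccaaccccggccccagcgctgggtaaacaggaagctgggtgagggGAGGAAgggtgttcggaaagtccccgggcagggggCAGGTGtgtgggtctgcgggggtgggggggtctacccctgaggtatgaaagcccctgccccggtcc

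Promoters were found for 23 of the 31 genes, as 27 windows because some genes have several starts, and were searched on both strands for 5 motifs of lymphoid transcription factors. The E-box CAGGTG was held by 7 of 14 B cell windows, 4 of 7 T cell windows and 1 of 6 other lymphoid windows, and by 17.2% of all 32851 mouse promoters. GAGGAA, a core bound by PU.1 and Spi-B, was held by 4, 5 and 1 of those windows, and by 23.3% of all promoters. The Cd79a window held both, 154 and 140 bases before the start, and so did the Ltb window, 66 and 101 bases before it. The Cd3g window held 2 E-boxes, at 148 and 35 bases. The EBF motif, TCCC and GGGA with 2 bases between them, was held only by Cd22 among these windows (0.779% of all promoters), the RUNX motif TGTGGT by 2, 1 and 1 windows (14% of all), and the octamer ATTTGCAT by none of the 27 (1.6% of all). No 2 of the matches in the 3 printed windows overlapped. A match is a run of letters and not a measured binding site.

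Ins1 and Ins2, the insulin genes of beta cells, made up 27.0% to 67.8% of summed FPKM in the 19 libraries, and the acinar list took 0.0609% to 46.1%. FPKM correct fragment numbers for transcript length and for the size of the library, and without counts the depth of a library is unknown. Smarcd3, the gene that encodes BAF60C, was listed at 3.11 and 2.40 FPKM in the libraries labelled BcBKO, HFD, against 2.57 and 2.55 FPKM in flox/flox, HFD. The 2 groups overlapped, and since the deleted exons are not given, a level over the whole gene may not show the deletion. Values were set on a common scale within each table by median scaling before each test, and limma was run on log2(FPKM + 1) over genes that reached 1 FPKM in 2 or more libraries of the table. This scale understates the change of low genes. Levels are given as deposited and per length, and tables were normalized separately, so levels in different tables are set side by side only.

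The lymphocyte genes stood highest, within the PBS table, in KO_PBS islets. On deposited FPKM, 31 of 31 were above both CTR_PBS libraries in both KO_PBS libraries (15.2% of all listed genes) and 0 were below (62.6%). The 17 B cell genes summed to 105 and 101 FPKM in KO_PBS, against 6.72 and 6.92 FPKM in CTR_PBS, and the 8 T cell genes to 6.29 and 7.63 FPKM in KO_PBS, against 0.77 and 0.46 FPKM in CTR_PBS. In bulk tissue, fewer cells of a type and less RNA per cell cannot be told apart. Of the 31 genes, 25 passed the filter (17 B, 3 T, 5 other) and all 25 were called higher in KO_PBS, against 24.9% of the 11789 genes tested, and 0 lower, against 19.6%. A gene that passes the filter only through its KO_PBS libraries has to be higher there, so this count describes and does not test the list. The list was also chosen with earlier results of these data known, so the counts without a filter or by the authors describe it too. With no filter, 31 of 31 were called higher (22% of 17549 genes) and 0 lower (11.7%). By the adjusted p-values in the authors' deposited table, all 31 members were higher (14.7% of 17061 genes) and 0 lower (11.2%). Over all genes tested 2937 were higher and 2309 lower after median scaling; on the deposited scale the median gene shifted by -0.44 (log2), with 1021 higher and 9603 lower, and 25 members were called higher (8.66% of genes) and 0 lower (81.5%). Without KO_PBS library 1, and likewise without library 2, 4 members (Cd79a, Cd72, Coro1a and Jchain) passed the filter and all 4 were called.

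**Figure D1:**
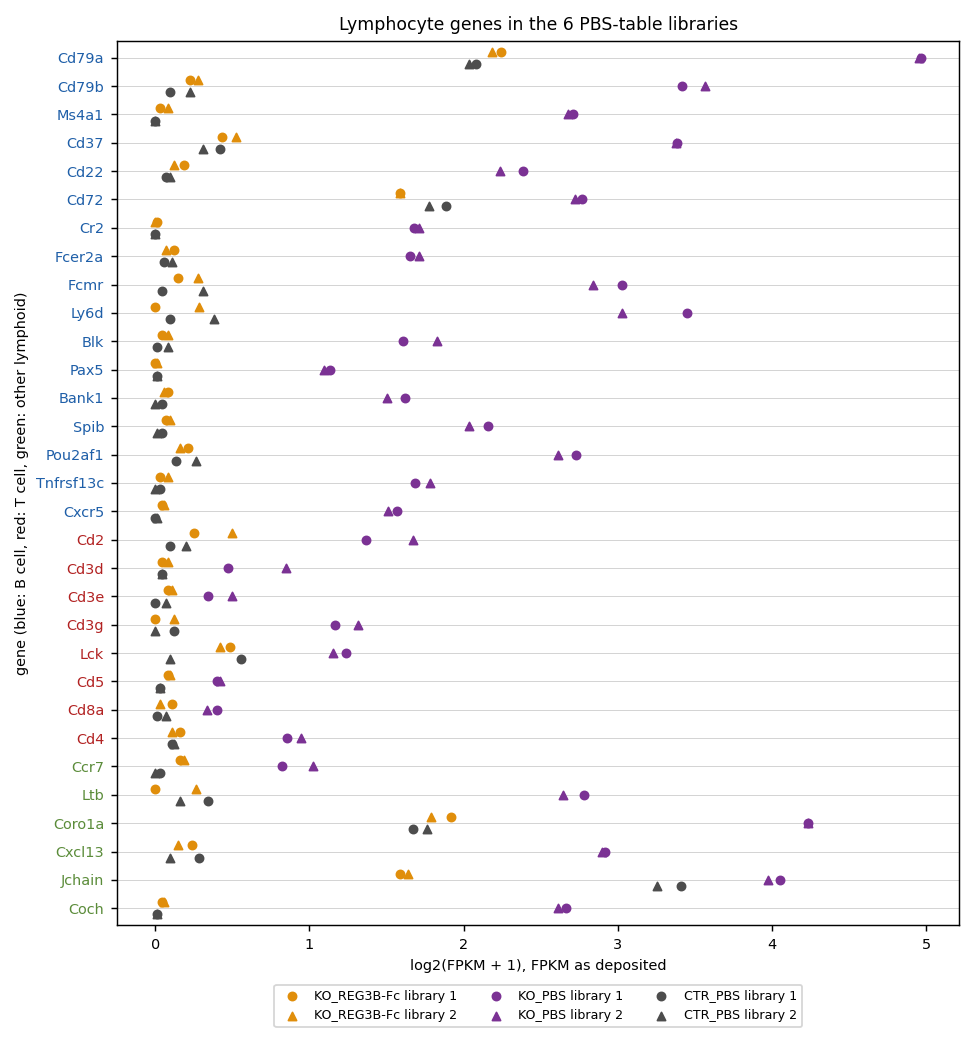
Level of each of the 31 lymphocyte genes in the 6 libraries of the PBS table, as log2(FPKM + 1) on the horizontal axis; circles are library 1 and triangles library 2 of KO_REG3B-Fc (orange), KO_PBS (purple) and CTR_PBS (grey). Both KO_PBS points lie to the right of both CTR_PBS points for all 31 genes, while KO_REG3B-Fc points lie near CTR_PBS except for Jchain.

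Both signalling chains of the B cell receptor were higher in KO_PBS. Cd79a (chr7:24897497-24901858) was at 30.3 and 29.9 FPKM in KO_PBS, against 3.23 and 3.10 FPKM in CTR_PBS, a log2 change of 3.39 ± 0.05 (SE, adjusted p = 1.10e-08). Cd79b (chr11:106311341-106314562) was at 9.65 and 10.8 FPKM in KO_PBS, against 0.07 and 0.17 FPKM in CTR_PBS (log2 change 3.70 ± 0.08, adjusted p = 3.45e-08). Cd79a and Cd79b pair in a single receptor, yet only Cd79a was above 3 FPKM in CTR_PBS, where it made up 48.1% and 44.8% of the summed B cell genes, against 28.8% and 29.7% in KO_PBS.

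Coreceptors and other surface proteins of B cells rose with them. Ms4a1, which encodes CD20, was at 5.53 and 5.39 FPKM in KO_PBS and is listed at 0 in both CTR_PBS libraries, so no fold is given (adjusted p = 3.45e-08). The tetraspanin gene Cd37 was at 9.44 and 9.40 FPKM in KO_PBS, against 0.34 and 0.24 FPKM in CTR_PBS (log2 change 3.40 ± 0.07). Cd22, an inhibitory coreceptor that binds sialic acid, was at 4.23 and 3.71 FPKM in KO_PBS, against 0.05 and 0.07 FPKM in CTR_PBS (log2 change 2.56 ± 0.07). These 3 genes were each under 0.5 FPKM in every control library. Cd72, another inhibitory coreceptor, behaved differently in level: it was at 5.80 and 5.59 FPKM in KO_PBS, against 2.69 and 2.43 FPKM in CTR_PBS, and its log2 change of 1.35 ± 0.06 was among the smaller ones. Its span overlaps Tesk1 in RefSeq, and the strand setting of the counting is not given in the sources used here, so reads of the 2 genes cannot be told apart.

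Receptors for complement, antibody and survival factors were nearly absent from the CTR_PBS and KO_REG3B-Fc libraries of the PBS table. Cr2, the complement receptor CD21, was at 2.20 and 2.27 FPKM in KO_PBS and is listed at 0 in both CTR_PBS libraries (adjusted p = 2.20e-07). Fcer2a, the IgE receptor CD23, was at 2.14 and 2.27 FPKM in KO_PBS, against 0.04 and 0.08 FPKM in CTR_PBS. Fcmr, the Fc receptor for IgM, was at 7.15 and 6.16 FPKM in KO_PBS, against 0.03 and 0.24 FPKM in CTR_PBS (log2 change 3.12 ± 0.10). For each of the 3, the groups were far apart compared with the gap between the libraries of a group. That gap need not show how far pools can differ. Within the WT group alone, 12 B cell genes summed to as little as 6.60 and as much as 96.1 FPKM. The same genes spanned 6.67 to 91.9 FPKM across the PBS libraries. Tnfrsf13c, the receptor for the survival factor BAFF, was at 2.21 and 2.44 FPKM in KO_PBS, against 0.02 and 0 FPKM in CTR_PBS. Cxcr5 was at 1.96 and 1.85 FPKM in KO_PBS, against 0 and 0.01 FPKM in CTR_PBS. Ly6d, a surface protein of early B lineage cells that some epithelia also make, was at 9.93 and 7.16 FPKM in KO_PBS, against 0.07 and 0.30 FPKM in CTR_PBS. Ly6d had the largest SE of the 17 B cell genes (log2 change 3.38 ± 0.15, adjusted p = 8.04e-07). Fcer2a overlaps Trappc5 and Cxcr5 overlaps Bcl9l in RefSeq, with the same limit as for Cd72, and Ms4a1, Cr2, Blk and Pax5 overlap non-coding genes.

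The genes inside the B cell moved in the same direction. Blk, a Src family kinase of the receptor, was at 2.05 and 2.55 FPKM in KO_PBS, against 0.01 and 0.06 FPKM in CTR_PBS. Bank1, a scaffold that links the receptor to calcium release, was at 2.08 and 1.83 FPKM in KO_PBS, against 0.03 and 0 FPKM in CTR_PBS. Pax5, the transcription factor that fixes B cell identity, was at 1.19 and 1.14 FPKM in KO_PBS, against 0.01 and 0.01 FPKM in CTR_PBS (log2 change 1.33 ± 0.07, adjusted p = 1.84e-06). Pax5 was the lowest of the 17 in KO_PBS. Spib, an Ets factor of B cells, was at 3.47 and 3.10 FPKM in KO_PBS, against 0.03 and 0.01 FPKM in CTR_PBS. Pou2af1, the coactivator that B cells use with octamer factors, was at 5.62 and 5.12 FPKM in KO_PBS, against 0.10 and 0.20 FPKM in CTR_PBS (log2 change 2.82 ± 0.07). Adjusted p-values of the 17 B cell genes ran to at most 1.84e-06. All of them but Cd79a and Cd72 reached 1 FPKM only in KO_PBS, so the limit on the filter given above holds for these p-values. With no filter they ran up to 7.09e-04, for Ly6d.

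T cell genes were lower than B cell genes in the same KO_PBS libraries. Cd2 encodes an adhesion molecule that is not limited to T cells and that NK cells, for example, share. Cd2 was at 1.58 and 2.18 FPKM in KO_PBS, against 0.07 and 0.15 FPKM in CTR_PBS (log2 change 1.65 ± 0.12, adjusted p = 1.54e-05). Cd3g was at 1.24 and 1.49 FPKM in KO_PBS, against 0.09 and 0 FPKM in CTR_PBS (log2 change 1.42 ± 0.09). Lck was at 1.36 and 1.22 FPKM in KO_PBS, against 0.47 and 0.07 FPKM in CTR_PBS (log2 change 1.13 ± 0.12, adjusted p = 1.55e-04). These were the 3 T cell genes that passed the filter. The other 5 stayed under 1 FPKM in every library of the table. Cd3d was at 0.39 and 0.80 FPKM in KO_PBS, against 0.03 FPKM in both CTR_PBS libraries. Cd3e was at 0.27 and 0.41 FPKM in KO_PBS, against 0 and 0.05 FPKM in CTR_PBS. The coreceptors were both low, with Cd4 the higher of the pair. Cd4 was at 0.81 and 0.93 FPKM in KO_PBS, against 0.08 and 0.09 FPKM in CTR_PBS, and Cd8a at 0.32 and 0.26 FPKM in KO_PBS, against 0.01 and 0.05 FPKM in CTR_PBS. Cd5, found on T cells and on a subset of B cells, was at 0.32 and 0.34 FPKM in KO_PBS, against 0.02 FPKM in both CTR_PBS libraries. With no filter these 5 were called higher, with adjusted p from 2.90e-04 for Cd5 to 0.0205 for Cd3d.

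The other 6 genes include some that cells of lymphoid follicles make, though follicles were not measured here. Cxcl13 was at 6.54 and 6.46 FPKM in KO_PBS, against 0.22 and 0.07 FPKM in CTR_PBS (log2 change 3.08 ± 0.08, adjusted p = 6.33e-08). Coch, which encodes the secreted protein cochlin made by follicular dendritic cells and the inner ear, was at 5.33 and 5.10 FPKM in KO_PBS, against 0.01 FPKM in both CTR_PBS libraries (log2 change 2.96 ± 0.06). Ltb was at 5.88 and 5.26 FPKM in KO_PBS, against 0.27 and 0.12 FPKM in CTR_PBS (log2 change 2.82 ± 0.10). These 3 genes were under 0.3 FPKM in the controls. Coro1a, an actin regulator of leukocytes in general, was at 17.8 and 17.8 FPKM in KO_PBS, against 2.18 and 2.39 FPKM in CTR_PBS (log2 change 2.99 ± 0.06). Ccr7, the homing receptor for lymph nodes, was at 0.77 and 1.03 FPKM in KO_PBS, against 0.02 and 0 FPKM in CTR_PBS; it did not pass the filter (with no filter, adjusted p = 0.00147). Jchain, which joins the immunoglobulin units that antibody-secreting cells release, was already high in controls: 15.6 and 14.7 FPKM in KO_PBS, against 9.64 and 8.55 FPKM in CTR_PBS, with a log2 change of 1.18 ± 0.06 after median scaling (adjusted p = 1.96e-06) and of 0.68 on the deposited scale (adjusted p = 9.93e-06).

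Other lists of marker genes moved in the same libraries, and their part in these results was not tested. The limit on the filter given for the members holds for these lists too, so their counts are a description. Of all genes tested, 24.9% were called higher and 19.6% lower, and on the deposited scale 8.66% and 81.5%. Among 43 further B cell genes 31 were tested, of which 30 were called higher (27 higher and 1 lower on the deposited scale). Of these further genes, 32 and 33 reached 1 FPKM in the KO_PBS libraries, against 11 and 11 in CTR_PBS. Of the pan-leukocyte genes, 17 and 17 did in KO_PBS, against 6 and 5 in CTR_PBS. Among 28 further T cell genes 4 were tested, of which Ccl5 (log2 change 1.82 ± 0.07), Tcf7 (1.14 ± 0.07) and Thy1 (0.94 ± 0.09) were higher and Skap1 (-0.60 ± 0.05) lower, as on the deposited scale by count. All 17 pan-leukocyte genes were higher on both scales, led by Ptprcap (3.00 ± 0.08) and Cd52 (2.83 ± 0.18), and summed to 117 and 112 FPKM in KO_PBS, against 24.4 and 22.7 FPKM in CTR_PBS. All 10 tested of 14 macrophage genes were higher (9 on the deposited scale), led by Lyz2 (3.49 ± 0.05). All 6 tested of 16 genes of lymphoid stroma and high endothelium were higher (5 higher and 1 lower on the deposited scale), led by Ccl21a (2.81 ± 0.15), Vcam1 (2.21 ± 0.06), Ccl19 (1.87 ± 0.10) and Madcam1 (1.52 ± 0.09). Of 12 plasma cell genes 4 of 7 tested were higher and 0 lower, led by Mzb1 (2.39 ± 0.11), but on the deposited scale 3 were higher and 4 lower. None of the 9 NK and cytotoxic genes passed the filter, and their sum was 1.82 and 1.46 FPKM in KO_PBS, against 0.44 and 0.22 FPKM in CTR_PBS. Of the acinar genes 19 of 19 were higher on both scales, and they took 35.5% and 36.6% of summed FPKM in KO_PBS, against 17.5% and 17.3% in CTR_PBS. Of the remaining lists, tested genes were higher and lower in the ratio 3 to 0 for dendritic cells (0 to 0 on the deposited scale), 1 to 0 for neutrophils, 5 to 0 for erythroid cells, 1 to 3 for lymphatic endothelium, 3 to 2 for ducts, 6 to 2 for endothelium (0 to 6 on the deposited scale), 5 to 0 for stellate cells (5 to 1) and 4 to 1 for islet hormones (1 to 6).

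KO_REG3B-Fc islets had almost none of this signal. All 31 genes were below both KO_PBS libraries in both KO_REG3B-Fc libraries, as were 11.6% of all listed genes on deposited FPKM, and 0 were above (67.9%). The B cell genes summed to 6.97 and 7.23 FPKM in KO_REG3B-Fc, against 105 and 101 FPKM in KO_PBS, and the T cell genes to 0.94 and 1.15 FPKM, against 6.29 and 7.63 FPKM in KO_PBS. The 25 genes that passed the filter were all called lower, against 25% of 11789 genes, and 0 higher, against 19.8%, under the same limit on the filter as before. The limit on the choice of the list holds as well, here and for the counts that follow. With no filter 31 of 31 were lower (20.9% of genes) and 0 higher (12.4%). By the authors' deposited table, all 31 were lower (13.9% of 17126 genes) and 0 higher (10.2%). After median scaling 2330 genes were higher and 2950 lower; on the deposited scale, where the median gene shifted by 0.53 (log2), 10157 were higher and 822 lower, and 25 members were called lower (6.97% of genes) and 0 higher (86.2%). This comparison shares its KO_PBS libraries with the comparison to CTR_PBS, so opposite signs in the 2 comparisons are not separate results. Without either KO_PBS library in turn, the same 4 genes as above passed the filter and were called.

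By role, the chains Cd79a and Cd79b were at 3.73 and 3.55 FPKM and at 0.17 and 0.21 FPKM in the 2 KO_REG3B-Fc libraries, against the KO_PBS values given above (log2 changes -3.31 ± 0.05 and -3.64 ± 0.08, adjusted p = 9.86e-09 and 2.43e-08). Ms4a1 was at 0.02 and 0.06 FPKM and Cd37 at 0.35 and 0.44 FPKM in KO_REG3B-Fc (log2 changes -2.98 ± 0.06 and -3.33 ± 0.07). The 15 B cell genes other than Cd79a and Cd72 were all under 0.5 FPKM in both KO_REG3B-Fc libraries. Among T cell genes Cd2 was at 0.19 and 0.41 FPKM, Cd3g at 0 and 0.09 FPKM and Lck at 0.40 and 0.34 FPKM in KO_REG3B-Fc (log2 changes -1.46 ± 0.12, -1.43 ± 0.09 and -1.04 ± 0.12). The coreceptor genes and the other CD3 chains were also near 0. Cd3d was at 0.03 and 0.06 FPKM, Cd3e at 0.06 and 0.08 FPKM, Cd4 at 0.12 and 0.08 FPKM, and Cd8a at 0.08 and 0.02 FPKM in KO_REG3B-Fc. Among the other lymphoid genes, Cxcl13 was at 0.18 and 0.11 FPKM, Coch at 0.03 and 0.04 FPKM and Ltb at 0 and 0.20 FPKM in KO_REG3B-Fc (log2 changes -3.09 ± 0.08, -2.93 ± 0.06 and -2.94 ± 0.10). Coro1a was at 2.78 and 2.46 FPKM in KO_REG3B-Fc (log2 change -2.93 ± 0.06).

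The marker lists moved along here too, which was not tested as a part of the result. The same limit on the filter holds for their counts. Of all genes tested, 25% were called lower and 19.8% higher, and on the deposited scale 6.97% and 86.2%. All 31 tested of the further B cell genes, all 17 pan-leukocyte genes, all 10 tested macrophage genes, all 6 tested stromal genes and all 19 acinar genes were called lower in KO_REG3B-Fc than in KO_PBS. On the deposited scale the 17 pan-leukocyte and 19 acinar genes were again all lower, while the further B cell genes had 27 lower and 1 higher, the macrophage genes 7 lower and 1 higher, and the stromal genes 5 lower. The acinar genes took 15.1% and 15.3% of summed FPKM in KO_REG3B-Fc, against 35.5% and 36.6% in KO_PBS, while insulin took 58.1% and 57.7% in KO_REG3B-Fc, against 38.9% and 38.2% in KO_PBS.

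**Figure D2:**
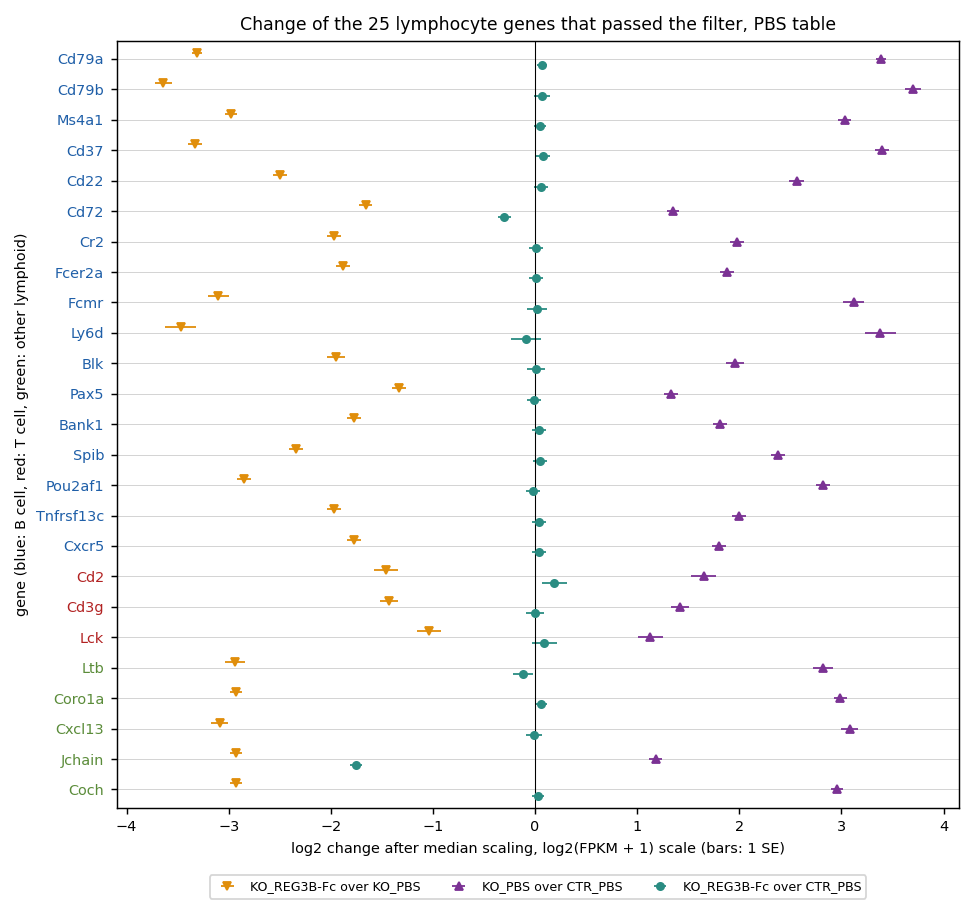
Log2 change with 1 SE on each side for the 25 lymphocyte genes that passed the filter, in 3 comparisons of the PBS table that share libraries (KO_REG3B-Fc over KO_PBS in orange, KO_PBS over CTR_PBS in purple, KO_REG3B-Fc over CTR_PBS in green), after median scaling on the log2(FPKM + 1) scale. The green points lie between -0.30 and 0.19 except that of Jchain at -1.75; for Ms4a1 and Cr2, listed at 0 in CTR_PBS, the fitted change depends on the pseudocount.

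Between KO_REG3B-Fc and CTR_PBS, 23 of the 25 tested members passed no threshold. No member was called higher (5.51% of genes were) and 2 were called lower (5.28% of genes were), with 649 genes higher and 623 lower in all; on the deposited scale the split was 1977 to 338, with 0 members higher (16.8% of genes) and 2 lower (2.87%). With no filter 0 of 31 were higher (2.2% of genes) and 2 of 31 lower (1.93%). On deposited FPKM 13 of 31 were above both CTR_PBS libraries in both KO_REG3B-Fc libraries (45.7% of listed genes) and 2 below (8.88%). Cd79a was at 3.73 and 3.55 FPKM in KO_REG3B-Fc, against 3.23 and 3.10 FPKM in CTR_PBS (log2 change 0.07 ± 0.05, adjusted p = 0.365). A p-value that misses the threshold does not show that the groups are alike. The SE of the other 22 ran to 0.15, but the scale understates changes of genes near 0. A small SE therefore cannot bound a fold difference for such genes. Cd2, for example, was at 0.19 and 0.41 FPKM in KO_REG3B-Fc, against 0.07 and 0.15 FPKM in CTR_PBS. Its log2 change was 0.19 ± 0.12. Jchain was the exception in size. It was at 2.01 and 2.11 FPKM in KO_REG3B-Fc, against 9.64 and 8.55 FPKM in CTR_PBS, and with the KO_PBS levels given above it stood lower than in either other group (log2 change -1.75 ± 0.06 against CTR_PBS, adjusted p = 2.92e-06; -2.93 ± 0.06 against KO_PBS). Cd72 was at 2.00 FPKM in both KO_REG3B-Fc libraries, against 2.69 and 2.43 FPKM in CTR_PBS (log2 change -0.30 ± 0.06, adjusted p = 0.0138), and that call was lost without CTR_PBS library 1 (adjusted p = 0.109), KO_REG3B-Fc library 1 (0.0845) or KO_REG3B-Fc library 2 (0.0734).

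The erythroid list, like the acinar and neutrophil lists, showed the same order of groups as Jchain. Its 6 genes summed to 124 and 142 FPKM in KO_REG3B-Fc islets, with 599.9 and 613 FPKM for KO_PBS islets and 392 and 396 FPKM for CTR_PBS islets. All 5 tested were lower in KO_REG3B-Fc than in CTR_PBS. The acinar share of summed FPKM was 15.1% and 15.3% for KO_REG3B-Fc islets, beside 17.5% and 17.3% for CTR_PBS islets. For KO_PBS islets it was 35.5% and 36.6%. Of 19 acinar genes, 15 were called lower and 0 higher in KO_REG3B-Fc than in CTR_PBS. Neutrophil sums reached 0.54 FPKM for KO_REG3B-Fc, 1.24 FPKM for CTR_PBS and 2.81 FPKM for KO_PBS, each in the higher library. The part of blood or of acinar tissue in the Jchain result was not tested. Of 7 tested plasma cell genes, 2 were lower and 0 higher in KO_REG3B-Fc than in CTR_PBS (0 lower on the deposited scale), and 4 were lower and 0 higher than in KO_PBS (3 lower and 4 higher on the deposited scale). The median level of the 8 plasma cell genes listed was 4.07 and 3.73 FPKM in KO_REG3B-Fc, against 3.81 and 3.52 FPKM in CTR_PBS. The part of plasma cells in the Jchain result was not tested.

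The 5 WT libraries varied widely among themselves. Over the 12 B cell genes also listed in the PBS table, their sums ran between 6.60 and 96.1 FPKM, beside 6.67 to 91.9 FPKM in the 6 PBS libraries. Cd79a was at 15.2, 32.9, 12.9, 8.73 and 3.26 FPKM in WT libraries 1 to 5, and Cd79b at 5.42, 11.8, 4.44, 0 and 0.10 FPKM. For 21 of the 23 listed members, libraries 1, 2 and 3 were all above libraries 4 and 5, and library 2 was the highest for 20. The share of all 15216 listed genes with either order was not computed, and the split was set with these values known. The group has no partner in its table, so these are levels with no test. Cd37 was at 6.67, 12.1, 3.90, 0.07 and 0.23 FPKM, Ly6d at 4.82, 10.3, 3.23, 0.31 and 0.60 FPKM, and Fcmr at 3.84, 7.23, 3.69, 0.11 and 0.05 FPKM. Cd72 again kept a floor, at 4.39, 5.14, 3.17, 1.57 and 1.99 FPKM. In library 4 Cd79a alone made up 79.5% of the summed B cell genes, since the other 11 listed had a median of 0.03 FPKM there. Ms4a1, Cr2, Blk, Pax5, Bank1, Cd3g, Cd5 and Ccr7 were not analysed here in WT islets. The other 6 listed B cell genes, Cd22, Fcer2a, Spib, Pou2af1, Tnfrsf13c and Cxcr5, lay between 0.51 and 3.99 FPKM in libraries 1 to 3 and at or under 0.12 FPKM in libraries 4 and 5.

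T cell genes followed the same order of WT libraries. Cd3d was at 2.56, 4.33, 1.17, 0 and 0.18 FPKM, and Cd3e at 1.84, 2.49, 0.40, 0 and 0.24 FPKM. Cd4 was at 1.62, 2.42, 0.94, 0.02 and 0.07 FPKM, and Cd8a at 1.00, 1.53, 0.77, 0.02 and 0.08 FPKM. Lck was at 3.80, 5.90, 2.55, 0.70 and 0.25 FPKM, the highest of the 6 listed T cell genes in libraries 1 and 2. Relative to B cell genes, T cell genes stood higher in WT libraries 1 to 3 than in KO_PBS. Over the 12 B and 6 T cell genes listed in both tables, the T sum was 28.3%, 22.4%, 22.0%, 9.02% and 19.2% of the B sum in WT libraries 1 to 5. It was 5.15% and 6.62% in KO_PBS, 9.90% and 6.42% in CTR_PBS, and 12.8% and 14.0% in KO_REG3B-Fc. The tables were normalized separately, and this difference was not tested.

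**Figure D3:**
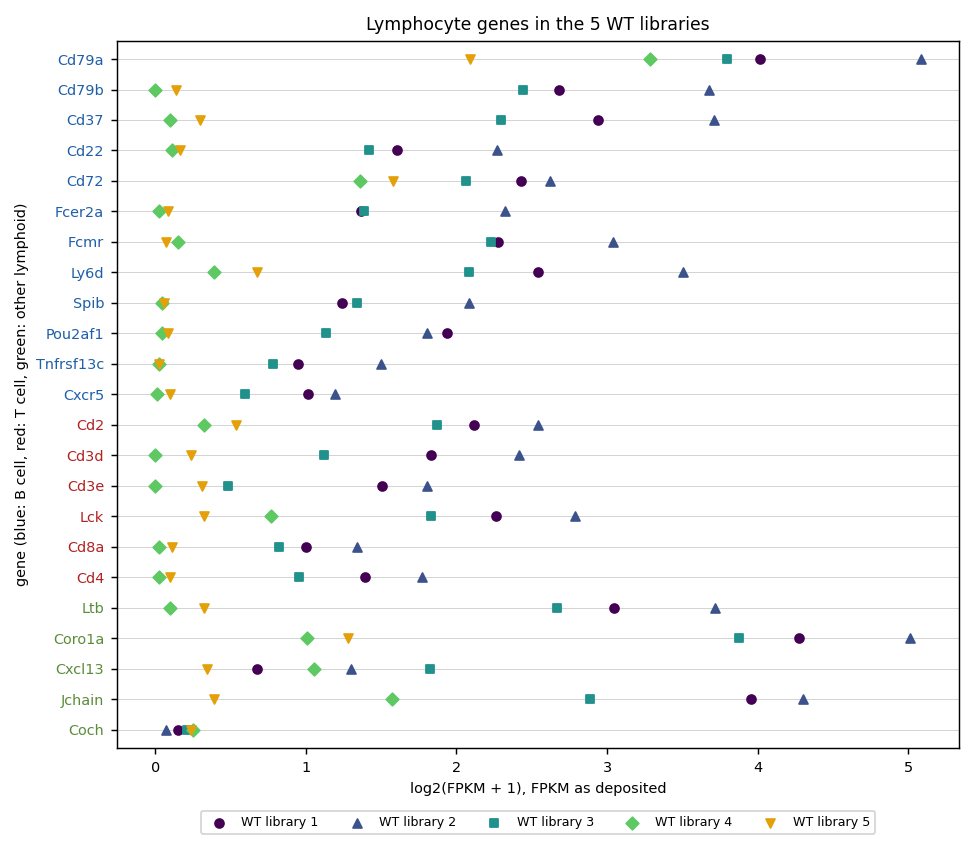
Level of the 23 lymphocyte genes listed in the WT table in each of the 5 WT libraries, as log2(FPKM + 1) on the horizontal axis, 1 symbol for each library. Libraries 1, 2 and 3 lie to the right of libraries 4 and 5 for 21 of the 23 genes, and Cxcl13 and Coch do not follow that order. The share of all listed genes that do so was not computed.

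The other lymphoid genes divided in WT islets. Ltb was at 7.26, 12.2, 5.34, 0.07 and 0.25 FPKM, Coro1a at 18.4, 31.3, 13.7, 1.01 and 1.43 FPKM, and Jchain at 14.5, 18.7, 6.41, 1.98 and 0.31 FPKM, all 3 in the order of the B cell genes. Cxcl13 and Coch, unlike Ltb, did not keep that order. Cxcl13 was at 0.60, 1.46, 2.54, 1.08 and 0.27 FPKM, highest in library 3, and Coch between 0.05 and 0.19 FPKM in all 5. Set beside these, KO_PBS islets held 5.10 to 5.33 FPKM of Coch at B cell levels close to those of WT library 2 (summed 91.9 and 87.6 FPKM over the 12 shared B cell genes in KO_PBS, 96.1 FPKM in WT library 2). Among stromal markers, the lymph node chemokine Ccl21a was at 42.3, 35.9, 30.4, 0 and 0 FPKM and the high endothelial mucin Glycam1 at 25.3, 14.2, 30.1, 0 and 0.34 FPKM in WT libraries 1 to 5, and in KO_PBS Ccl21a was at 5.72 and 7.04 FPKM and Glycam1 is listed at 0. Acinar genes took 33.8%, 44.1%, 46.1%, 5.85% and 28.7% of summed FPKM in WT libraries 1 to 5. The part of these other tissues in the lymphocyte levels was not tested.

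**Figure D4:**
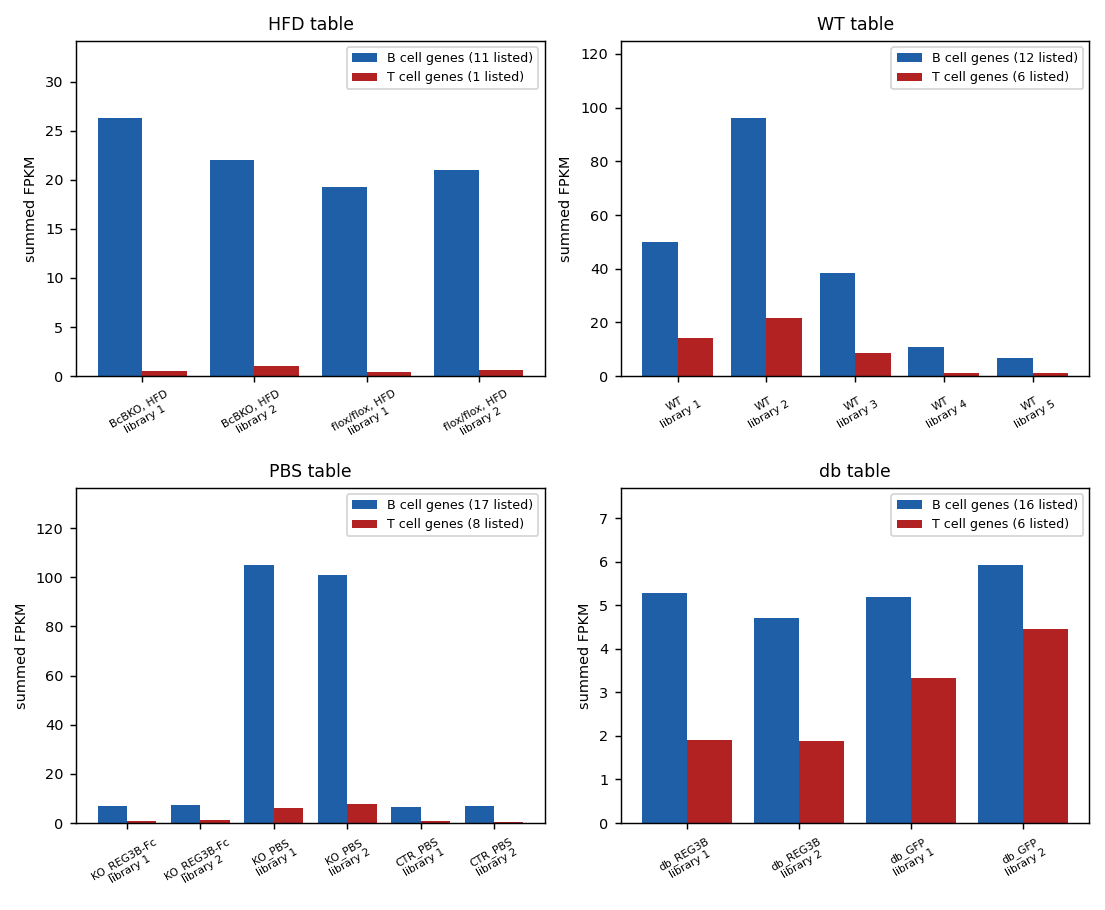
Summed FPKM of the B cell genes (blue) and T cell genes (red) in each of the 19 libraries, 1 panel for each table, bars from 0, with the number of genes listed in that table in the legend. The panels have their own vertical scales: KO_PBS and WT libraries 1 to 3 hold the high sums, and no db library exceeds 5.92 FPKM for B cell genes.

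On the high-fat diet, no lymphocyte gene was called in BcBKO, HFD islets. Of the 14 listed members 8 were tested with limma, 0 were higher (0.00865% of 11560 genes) and 0 lower (0% of genes); at an unadjusted p under 0.05, 1 member was higher and 0 lower, against 200 and 96 genes in all. The authors' deposited table called 0 of the 14 members higher (0.109% of 12822 genes) and 0 lower (0.0546%). On deposited FPKM 2 of the 14, Cd72 and Jchain, were above both flox/flox, HFD libraries in both BcBKO, HFD libraries (25.9% of listed genes), and 2, Cd22 and Ly6d, were below (4.8%). Cd79a was at 10.7 and 6.17 FPKM in BcBKO, HFD, against 8.30 and 4.95 FPKM in flox/flox, HFD (log2 change 0.22 ± 0.30, adjusted p = 1), and the groups overlapped. Cd79b was at 1.01 and 1.97 FPKM in BcBKO, HFD, against 0.69 and 1.45 FPKM in flox/flox, HFD, also with overlap. Ms4a1, at 0.38 and 0.46 FPKM in BcBKO, HFD, against 0.29 and 0.41 FPKM in flox/flox, HFD, did not pass the filter. Cd72 was at 6.20 and 6.37 FPKM in BcBKO, HFD, against 4.60 and 5.98 FPKM in flox/flox, HFD, without overlap (log2 change 0.14 ± 0.17). Jchain was at 13.9 and 9.18 FPKM in BcBKO, HFD, against 5.40 and 7.20 FPKM in flox/flox, HFD, and was the 1 member under 0.05 before adjustment (limma log2 change 0.68 ± 0.24, adjusted p = 1). Coro1a was at 3.91 and 5.03 FPKM in BcBKO, HFD, against 2.13 and 4.39 FPKM in flox/flox, HFD (log2 change 0.33 ± 0.31). Cd37, Fcmr and Ly6d lay between 0.54 and 2.55 FPKM in all 4 libraries, and Cd22, Fcer2a and Pou2af1 between 0.10 and 0.63 FPKM. Pax5 rested on 1 library, with 2.89 and 0.30 FPKM in BcBKO, HFD, against 0.05 and 0.46 FPKM in flox/flox, HFD. Lck, the only T cell gene listed in this table, was at 0.55 and 1.02 FPKM in BcBKO, HFD, against 0.37 and 0.57 FPKM in flox/flox, HFD. The B cell genes, 11 of 17 listed, summed to 26.3 and 22.0 FPKM in BcBKO, HFD, against 19.3 and 21.0 FPKM in flox/flox, HFD.

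B cell genes were low in all 4 db libraries. The 16 listed B cell genes summed to 5.28 and 4.71 FPKM in db_REG3B, against 5.19 and 5.92 FPKM in db_GFP, and 4 of the 16 passed the filter. Of 8 members tested, 1 was called higher in db_REG3B (20.1% of 12507 genes were) and 5 lower (25.8% of genes were); a member at 1 FPKM in only 1 group passes because it differs, so the counts are a description. With no filter the counts were again 1 and 5, but of 28 members (12.5% of genes were higher and 20.6% lower). On the deposited scale they were 1 (12.2% of genes) and 5 (30.8%) of the 8 tested. The authors' deposited table called 1 of 28 members higher (12.3% of 16941 genes) and 3 lower (15.1%). On deposited FPKM 4 of 28 listed members were above both db_GFP libraries in both db_REG3B libraries (20.5% of all listed genes) and 11 were below (43.9%). Without db_GFP library 1, and likewise without db_GFP library 2, the number called lower was 2 (Lck and Coro1a), because Cd22, Cd4 and Ltb then had too few libraries at 1 FPKM, and without either db_REG3B library Cd79a was not tested for the same reason.

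**Figure D5:**
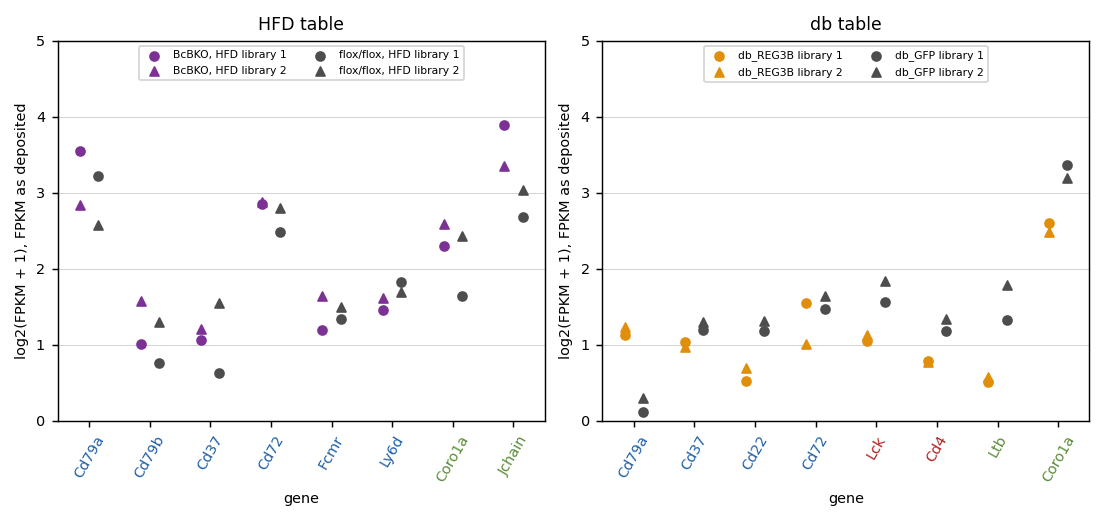
Level of the 8 tested lymphocyte genes in the HFD table (left) and the 8 in the db table (right), as log2(FPKM + 1) on the vertical axis; circles are library 1 and triangles library 2 of BcBKO, HFD (purple), db_REG3B (orange) and their controls (grey). In the HFD panel the groups overlap for 5 of 8 genes, and in the db panel Cd79a is higher in db_REG3B while Cd22, Lck, Cd4, Ltb and Coro1a are lower.

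Cd79a was the 1 member called higher. It was at 1.18 and 1.34 FPKM in db_REG3B, against 0.08 and 0.23 FPKM in db_GFP (log2 change 0.99 ± 0.11, adjusted p = 2.49e-04; in the authors' deposited table the change was 3.11, adjusted p = 0.0164). Its partner chain Cd79b was at 0.25 and 0.19 FPKM in db_REG3B, against 0.23 and 0.23 FPKM in db_GFP, and Ms4a1 at 0.04 and 0.02 FPKM in db_REG3B and listed at 0 in db_GFP. Cd79a was therefore above 1 FPKM in db_REG3B with Cd79b and Ms4a1 at or under 0.25 FPKM. In both KO_REG3B-Fc libraries, both CTR_PBS libraries and WT libraries 4 and 5, Cd79a was above 3 FPKM with Cd79b at or under 0.21 FPKM. Cd22 was at 0.44 and 0.62 FPKM in db_REG3B, against 1.27 and 1.47 FPKM in db_GFP (log2 change -0.60 ± 0.11, adjusted p = 0.00281). Cd79a and Cd22 each reached 1 FPKM in only 1 of the groups, so the limit on the filter given above holds for both. Cd37, at 1.04 and 0.96 FPKM in db_REG3B, against 1.28 and 1.45 FPKM in db_GFP, was not called (adjusted p = 0.126), and Cd72 overlapped between the groups.

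Lck and Cd4, the 2 T cell genes tested, were both lower. Cd4, like Ltb below, reached 1 FPKM only in db_GFP, so it passed the filter only by being higher there. Lck was at 1.07 and 1.18 FPKM in db_REG3B, against 1.94 and 2.57 FPKM in db_GFP (log2 change -0.57 ± 0.11, adjusted p = 0.00476), and Cd4 at 0.72 and 0.71 FPKM in db_REG3B, against 1.26 and 1.53 FPKM in db_GFP (log2 change -0.45 ± 0.10, adjusted p = 0.00914). In the authors' deposited table neither passed, with adjusted p-values of 0.0615 for Lck and 0.111 for Cd4. Unlike Cd4, the markers Cd3d and Cd8a were at or near 0: Cd3d was at 0.09 and 0 FPKM in db_REG3B and listed at 0 in db_GFP, and Cd8a listed at 0 in db_REG3B and at 0 and 0.08 FPKM in db_GFP. Ltb was at 0.42 and 0.49 FPKM in db_REG3B, against 1.5 and 2.45 FPKM in db_GFP (log2 change -0.98 ± 0.15, adjusted p = 0.0013). Coro1a was at 5.09 and 4.60 FPKM in db_REG3B, against 9.27 and 8.15 FPKM in db_GFP (log2 change -0.67 ± 0.09, adjusted p = 4.77e-04).

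Beside these, the macrophage list fell in 11 of 11 tested genes and summed to 417 and 434 FPKM in db_REG3B, against 885 and 886 FPKM in db_GFP, and 12 of 13 tested pan-leukocyte genes were lower. All 7 stellate genes were lower, with sums of 227 and 239.9 FPKM in db_REG3B, against 1319.7 and 1303 FPKM in db_GFP. All 8 endothelial genes were lower (summed 48.0 and 52.4 FPKM in db_REG3B, against 103 and 102 FPKM in db_GFP), and so were all 5 tested duct genes, all 4 tested genes of lymphoid stroma (summed 21.4 and 22.2 FPKM in db_REG3B, against 49.8 and 50.1 FPKM in db_GFP) and both tested dendritic cell genes. The further B cell genes had 16 of 21 tested lower and 1 higher, and the further T cell genes 3 of 5 lower and 1 higher. Of all genes tested, 25.8% were called lower and 20.1% higher, and the limit on the filter given above holds here. Insulin took 54.7% and 55.0% of summed FPKM in db_REG3B, against 34.6% and 35.0% in db_GFP. The part of macrophages, which share Coro1a and can carry Cd4, and of the other lists in the db result was not tested.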

How the data were processed

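Per the labels' protocols, mRNA of islets was read from both ends on a BGISEQ-500. The authors deposited FPKM for 19 libraries and, for the 4 HFD libraries, TPM as well, per the file headers. For 4 comparisons the authors deposited a log2 fold change, its p-value and an adjusted p-value. The authors used DESeq2 for those of the PBS and db comparisons, per the file headers. The genome build is GRCm38.p6, per the submitters' processing notes; the aligner, the counting program and its strand setting are not given in the sources used here. Depth is unknown from FPKM, so no counting interval was computed.

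Each library was divided by its median ratio to the geometric mean of the libraries of its table. R 4.3.3 with limma 3.58.1 and a trended empirical Bayes prior was used on log2(FPKM + 1), all groups of a table in 1 fit (2 residual degrees of freedom in the HFD and db tables, 3 in the PBS table), over genes that reached 1 FPKM in 2 or more libraries. Two-sided p-values were adjusted by Benjamini and Hochberg over every gene tested, with a threshold of 0.05. The script was tested on simulated data. Alternatives were deposited scale, no filter, pseudocount 0.1, TPM, 2 groups only, a replicate block and leaving out each library. A sum is over the listed genes of a list. The deposited scale and no filter were also used for counts.

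The 31 genes, the 16 further lists and the tests were chosen with earlier results of these data known. By rule, values per library are given for genes at 5 FPKM or more in a group or called, and for Cd79a, Cd79b, Ms4a1, Cd3d, Cd3e, Cd4 and Cd8a where listed; up to 4 called genes with the largest change may be named from each further list. Glycam1, and members given per library outside this rule, were chosen after their values were seen. Promoter sequences and gene spans are those of RefSeq on GRCm38.p6.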

Additional observations from a re-analysis of the deposited data

How the results depend on the processing

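Outside the HFD table and Cd72, each member followed kept its direction and side of the threshold under the alternatives that could be run for it. In KO_REG3B-Fc against CTR_PBS the Cd72 call was lost without 3 of the 6 libraries in turn (log2 change -0.35 to -0.26), so 1 to 2 members were lower. Members called in the 2 comparisons with KO_PBS ranged from 4 to 25 on leaving out a library, since leaving out either KO_PBS library removes genes from the filter by construction. In db_REG3B against db_GFP they ranged from 0 to 1 higher and 2 to 6 lower. On deposited FPKM the splits over all genes were 1021 higher and 9603 lower in KO_PBS against CTR_PBS, 10157 and 822 in KO_REG3B-Fc against KO_PBS, 1977 and 338 in KO_REG3B-Fc against CTR_PBS, and 1530 higher in db_REG3B. With no filter KO_REG3B-Fc against CTR_PBS had 386 higher and 339 lower. Leaving out a library gave 1402 to 2171 genes lower in KO_PBS against CTR_PBS, and 232 to 741 higher and 233 to 709 lower in KO_REG3B-Fc against CTR_PBS. In the HFD table the 1 gene called higher ranged from 0 to 1 on leaving out a library and was 0 with no filter and 0 with TPM; no member was called under any alternative run. There the uncalled Cd37 (-0.01) turned to 0.04 on the deposited scale and 0.09 with a pseudocount of 0.1, and on leaving out a library ranged from -0.50 to 0.48, Cd79a from -0.12 to 0.55, Cd79b from -0.08 to 0.51, Cd72 from -0.05 to 0.33 and Coro1a from -0.09 to 0.76; the cause was not tested. Replicate numbers repeat across groups, and the correlation of same-numbered deviations was 0.669 in the HFD table, -0.023 to 0.047 in the PBS table and -0.050 in the db table. The labels tie no number to a shared litter, batch or day and each comparison has only 2 pairs, so the block was not made the main fit; the HFD value leaves a pairing there possible. A fit with the replicate number as a block called 2 genes higher and 2 lower in the HFD table, and changed no call of a member followed in any table. The depth is unknown, so how far it limits the genes listed at or near 0 cannot be given.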
